A study of Homo sapiens with 12 samples.

Results

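The serine and folate enzymes described here are 9 genes: PHGDH, PSAT1 and PSPH of serine synthesis, SHMT1 and MTHFD1 of the cytosolic folate cycle, and SHMT2, MTHFD2, MTHFD1L and ALDH1L2 of its mitochondrial counterpart. They were taken by name without a cut on their values, though with earlier results of these data known. The names come from 19775 genes that the array's annotation ties to at least 1 probe set with a single gene symbol. The 9 genes have 20 such probe sets, and 12 of these cleared the filter on low signal (over 4 in log2 on 3 or more of the arrays), so that 7 of the 9 genes could be tested. The other two, SHMT1 and MTHFD1L, are described through probe sets that the annotation shares between several genes.

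Serine synthesis draws a glycolytic intermediate through PHGDH, PSAT1 and PSPH to serine. Serine hydroxymethyltransferases then pass a carbon unit from serine to tetrahydrofolate, SHMT1 in the cytosol and SHMT2 in mitochondria, and the MTHFD enzymes and ALDH1L2 oxidise or release that unit for purine, thymidylate and methionine synthesis and for NADPH. In many mammalian cells the serine synthesis genes and the mitochondrial folate genes are targets of the transcription factor ATF4, which is translated when amino acids run short or the endoplasmic reticulum is stressed.

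The samples were cultures of HK-2, a line of immortalized epithelial cells derived from the human proximal tubule, grown without serum in a medium with epidermal growth factor, hydrocortisone, insulin, transferrin and selenium. Cells near confluence were exposed for 24 h or 72 h, either to a compound labelled Ota at a low dose or to vehicle. Each of the 4 groups (control 24 h, Ota 24 h, control 72 h, Ota 72 h) has 3 arrays labelled as biological replicates, 12 in all, and the dose and the full name of the compound are not given in the labels. The design asks what the exposure changes at each time, and part of its purpose was to find expression signatures of kidney toxicity.

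Values are log2 signals per probe set after GCRMA, a background correction and summary method for Affymetrix arrays, so a difference of 1 is a 2-fold difference. Arrays of a group correlated at 0.986 to 0.994 over the genes above the filter. The upper quartile of the arrays, over all probe sets but the controls, ran from 6.88 to 7.10. The 6 keratin and adhesion genes checked were all above the filter, and their summed log2 level was 62.9 to 65.1 in controls and 61.7 to 64.0 with Ota at 24 h, and 64.9 to 65.7 in controls and 62.5 to 63.5 with Ota at 72 h, apart at 72 h. By contrast 0 of 10 proximal tubule marker genes with a probe set passed it, among them AQP1, LRP2 and CUBN, so the tubule identity of the line rests on its label and not on these markers. None of the endothelial, leukocyte or distal nephron marker genes passed the filter. Of 7 fibroblast markers COL1A1, DCN and LUM did, and the summed log2 level of that list was 39.8 to 40.7 in controls at 24 h, 39.8 to 40.6 with Ota at 24 h, 35.3 to 36.2 in controls at 72 h and 38.3 to 39.3 with Ota at 72 h. The part of either list in the results was not tested.

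PHGDH and MTHFD1 moved in opposite directions with Ota at 72 h, and for that reason the 250 bases before the transcription start are shown for both, from RefSeq on GRCh38.p14, 5' to 3' on the strand of the gene, with the motifs searched in capitals.
PHGDH, chr1:119711684-119711933, plus strand: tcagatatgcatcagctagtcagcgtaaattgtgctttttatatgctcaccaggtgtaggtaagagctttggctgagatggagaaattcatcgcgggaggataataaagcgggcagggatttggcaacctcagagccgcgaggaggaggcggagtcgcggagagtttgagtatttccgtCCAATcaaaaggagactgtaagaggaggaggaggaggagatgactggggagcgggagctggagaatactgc
MTHFD1, chr14:64388103-64388352, plus strand: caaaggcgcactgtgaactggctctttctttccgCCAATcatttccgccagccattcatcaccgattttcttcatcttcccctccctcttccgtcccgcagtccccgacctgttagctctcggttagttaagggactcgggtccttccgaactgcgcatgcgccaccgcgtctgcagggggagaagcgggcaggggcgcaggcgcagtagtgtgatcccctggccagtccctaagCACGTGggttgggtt
The PHGDH window holds a CCAAT box, read by the factor NF-Y, 71 bases before the start. MTHFD1 carries a CCAAT box 216 bases before its start and an E-box, CACGTG, the letters bound by MYC and related factors, 15 bases before it.

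The third motif searched was TGATGNAA, the core of the element that ATF4 binds together with a CEBP partner. RefSeq promoter windows were given for 6 of the 9 genes, 9 windows in all, and PSPH, SHMT2 and ALDH1L2 had none. TGATGNAA was found, over both strands, in 1 of the 6 genes, MTHFD1L, at 90 or 129 bases before a start, depending on which annotated start is taken. That stretch of 30 bases is shown because it is the only match among the members, with the motif in capitals.
MTHFD1L, chr6:150866346-150866375, plus strand: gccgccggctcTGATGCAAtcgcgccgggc
The same letters stand in 3.14% of 35116 RefSeq promoter windows of that length. CACGTG was present in 2 of the 6 genes, MTHFD1 and MTHFD1L, against 6.34% of all windows. CCAAT was present in all 6, against 32.0%, and it overlaps neither of the other motifs in the windows shown. The gene counts take a gene if any of its windows matches, and MTHFD1L has several, while the percentages are per window. The counts and percentages are therefore not in the same unit. Letters in a window describe the sequence only, and no binding was measured.

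At 24 h no member passed the test between Ota and control cells. The test was limma's moderated linear model over the 10699 genes above the filter, with p-values adjusted by Benjamini-Hochberg over all of them and a threshold of 0.05. With limma 0 of the 7 tested members were called, and 2, MTHFD1 and PSPH, had an unadjusted p under 0.05. Paired by replicate number in a fit of the 6 arrays of 24 h, 1 member, PSPH, was called higher (limma, adjusted p = 0.0297). That paired fit called 1011 of all genes higher and 2394 lower. Of all genes tested, 9.44% were called higher and 21.6% lower at that time in the unpaired fit. The arrays of the groups did not overlap for 1 member, MTHFD1, and for 42.7% of all genes. The member median was 0.06 against -0.06 over all genes tested.

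At 72 h 3 members were lower with Ota and 1 was higher. ALDH1L2, SHMT2 and PHGDH fell, MTHFD1 rose, and PSAT1, PSPH and MTHFD2 did not pass. In the Ota comparisons, fell and rose mean lower or higher with Ota than in controls of the same time. Among all genes tested, 14.9% were called lower and 17.1% higher at 72 h. The arrays of the groups did not overlap for 4 of the 7 members, a pattern that 51.4% of all genes tested showed. The median change over the 7 members was -0.23, against 0.01 over all genes. In bulk cultures, fewer cells of a type and less RNA per cell cannot be told apart.

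**Figure D1:**
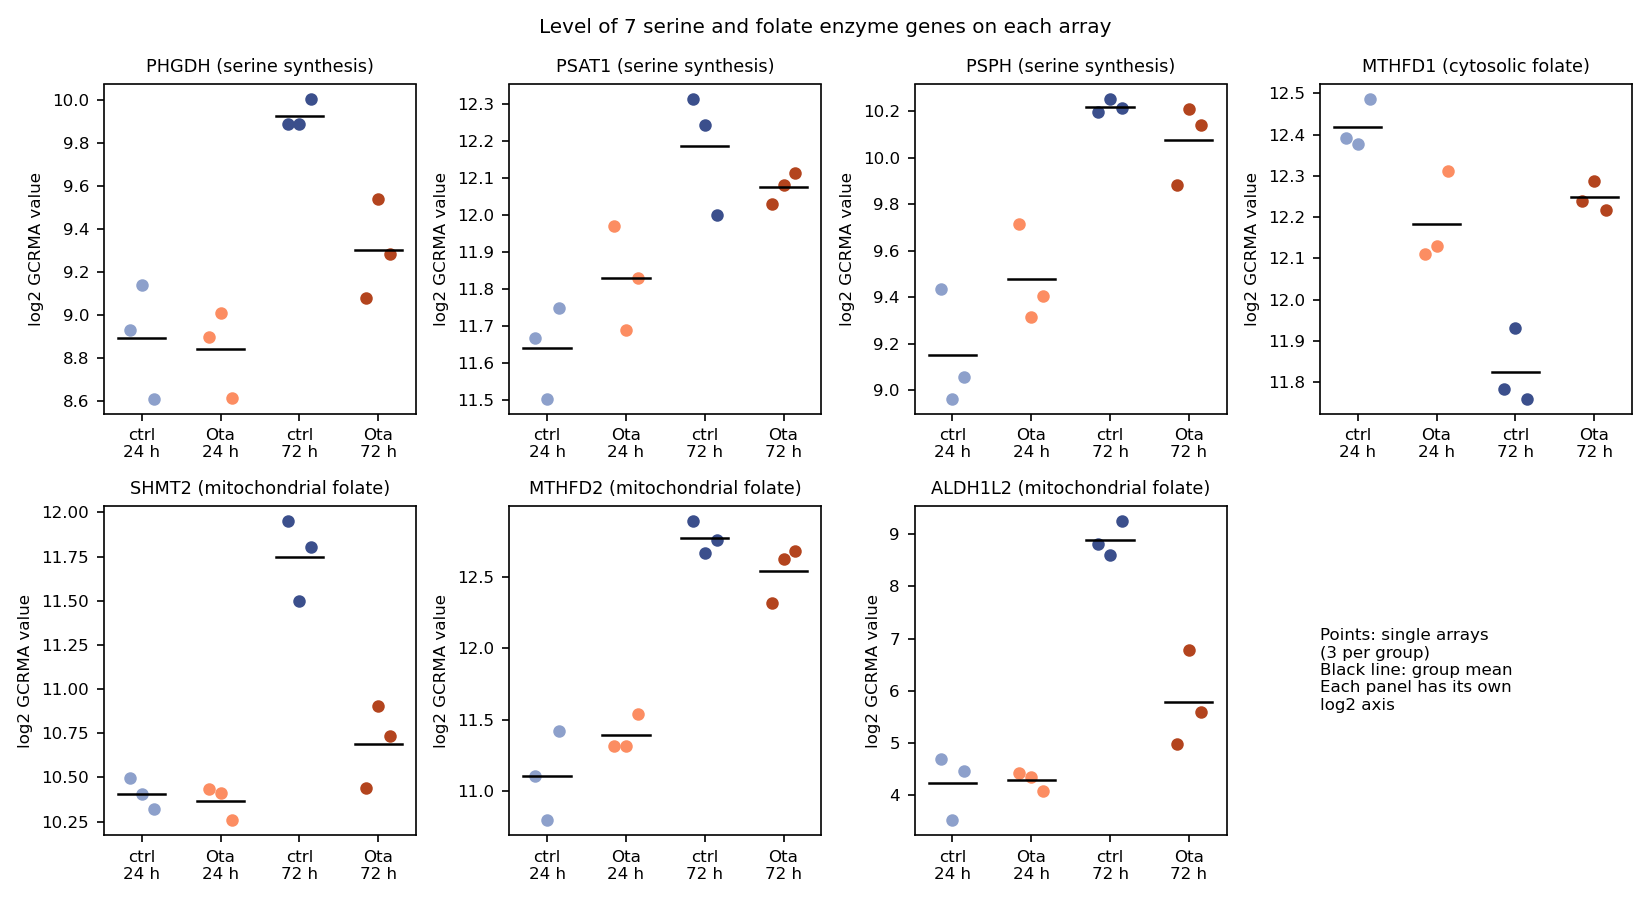
Log2 GCRMA values of the 7 tested genes on each array, 1 panel per gene with its own axis; points are single arrays, 3 per group, and the black line is the group mean. ALDH1L2, SHMT2 and PHGDH are highest in the 72 h controls with the Ota arrays of that time below them, and MTHFD1 is lowest there with the Ota arrays above.

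Serine synthesis begins with PHGDH, which oxidises 3-phosphoglycerate. Its probe set, 201397_at, read 8.93, 9.14 and 8.61 in controls at 24 h, 8.90, 9.01 and 8.61 with Ota at 24 h, 9.89, 9.89 and 10.00 in controls at 72 h, and 9.08, 9.54 and 9.28 with Ota at 72 h. The 2 groups at 24 h cover the same range, and every Ota array at 72 h lies below every control of that time but above all but 1 of the arrays at 24 h. PHGDH differed by -0.06 ± 0.16 (log2 fold change ± SE, limma, adjusted p = 0.827) at 24 h. It fell at 72 h by 0.63 ± 0.16 on the log2 scale, or 1.54-fold (limma, adjusted p = 0.0105, 3 against 3 arrays). A second probe set that holds PHGDH together with MZT2A and MZT2B, 212995_x_at, changed by 0.14 ± 0.11 at 72 h and did not pass (limma, adjusted p = 0.379).

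PSAT1, the transaminase of the second step, read 11.67, 11.50 and 11.75 in controls and 11.97, 11.69 and 11.83 with Ota at 24 h. At 72 h it read 12.31, 12.24 and 12.001 in controls and 12.03, 12.08 and 12.11 with Ota. The groups overlapped at both times. Its differences were 0.19 ± 0.11 at 24 h (limma, adjusted p = 0.217) and -0.11 ± 0.11 at 72 h (limma, adjusted p = 0.479), the latter with a 95% interval from -0.35 to 0.13.

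PSPH, the phosphatase that releases serine, read 9.43, 8.96 and 9.06 in controls and 9.71, 9.32 and 9.41 with Ota at 24 h. At 72 h the controls lay close together at 10.20, 10.25 and 10.22, and the Ota arrays read 9.88, 10.21 and 10.14. In pairs taken by replicate number at 24 h, a pairing that was not established, PSPH was higher with Ota by 0.28, 0.35 and 0.35. The differences were 0.33 ± 0.14 at 24 h (limma, adjusted p = 0.106) and -0.14 ± 0.14 at 72 h (limma, adjusted p = 0.483; 95% interval -0.46 to 0.17). With the replicate number as a block on the 6 arrays of 24 h, a fit added after the data were seen, PSPH passed (limma, adjusted p = 0.0297), the only member called in it. PSAT1 and MTHFD2 were also higher with Ota in all 3 pairs and did not pass there (limma, adjusted p = 0.145 and 0.103). MTHFD1 went the other way in all 3 pairs, at -0.28, -0.25 and -0.17, and did not pass either (limma, adjusted p = 0.0732). The PHGDH interval at 72 h, -0.97 to -0.28, overlaps those of PSAT1 and PSPH, and whether the 3 genes differ in their change was not tested.

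In the mitochondrial folate cycle SHMT2, which splits serine to glycine and loads the carbon unit on folate, has 3 single-symbol probe sets above the filter. The brightest, 214096_s_at, read 10.50, 10.40 and 10.32 in controls and 10.43, 10.41 and 10.26 with Ota at 24 h. At 72 h it read 11.95, 11.50 and 11.80 in controls and 10.44, 10.90 and 10.73 with Ota. The 72 h controls stand apart from the other 9 arrays, and the Ota arrays of that time reach down into the 24 h range. SHMT2 fell at 72 h by 1.06 ± 0.14, or 2.08-fold (limma, adjusted p = 0.000227), after a difference of -0.04 ± 0.14 at 24 h (limma, adjusted p = 0.867). The other two sets, 214095_at and 214437_s_at, fell by 0.89 ± 0.21 and 0.92 ± 0.21 at 72 h (limma over probe sets, adjusted p = 0.00895 and 0.00732).

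MTHFD2, the mitochondrial dehydrogenase and cyclohydrolase, read 11.11, 10.80 and 11.42 in controls and 11.32, 11.32 and 11.54 with Ota at 24 h on its brightest set, 201761_at. Its values at 72 h were 12.89, 12.66 and 12.76 in controls and 12.32, 12.62 and 12.68 with Ota, overlapping by 1 array. The differences were 0.29 ± 0.15 (limma, adjusted p = 0.188) and -0.23 ± 0.15 (limma, adjusted p = 0.283; 95% interval -0.57 to 0.11). That interval lies wholly above the SHMT2 interval at the same time, -1.36 to -0.75. The interval of the other MTHFD2 set, -0.87 to 0.31, overlaps the SHMT2 interval. Whether the genes differ in their change was not tested.

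The second MTHFD2 set, 234976_x_at, is dimmer. It read 6.79, 6.23 and 6.90 with Ota at 24 h, and 8.43, 7.87 and 8.15 in controls against 7.39, 8.52 and 7.69 with Ota at 72 h. The 3 controls at 24 h all read 5.62 to 5.63, with an SD of 0.0012 against 0.28 to 0.59 in the other groups, so they stand at a fixed lower value and a difference from them is no measured fold change. The limma fit calls this set higher at 24 h (adjusted p = 0.0142 over probe sets), the only 1 of the 12 single-symbol sets called at that time, when 12.9% of all probe sets tested were called higher and 18.1% lower. The call of the gene with the mean of both sets (limma, adjusted p = 0.0178) rests on the same controls. At 72 h the groups overlap, and the difference of -0.28 ± 0.27 did not pass (limma over probe sets, adjusted p = 0.484).

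ALDH1L2, which oxidises formyl-tetrahydrofolate in mitochondria to carbon dioxide while making NADPH, showed the widest range of the 7. Probe set 231202_at read 4.69, 3.53 and 4.47 in controls and 4.43, 4.34 and 4.08 with Ota at 24 h, near the filter. It read 8.80, 8.60 and 9.25 in controls at 72 h, against 4.99, 6.78 and 5.60 with Ota. All Ota arrays at 72 h lie between the 24 h arrays and the 72 h controls. ALDH1L2 fell by 3.09 ± 0.41 at 72 h, or 8.54-fold (limma, adjusted p = 0.00023), and the difference at 24 h was 0.06 ± 0.41 (limma, adjusted p = 0.933). The Ota arrays at 72 h have an SD of 0.91, the largest of the members, and replicate 2 is the highest of them for ALDH1L2, SHMT2 and PHGDH alike. With each array of that time left out in turn, the change ran from -3.59 to -2.69 for ALDH1L2, from -1.19 to -0.93 for SHMT2 and from -0.75 to -0.52 for PHGDH. All 3 genes stayed called by limma, PHGDH with adjusted p up to 0.0487.

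The other two ALDH1L2 sets, 1556841_a_at and 1559393_at, lay below the filter. They read 2.93, 2.54 and 3.14, and 3.05, 3.65 and 4.01, in controls at 72 h, and no more than 2.20 and 2.97 on every array of the other groups. With the mean of the 3 sets in place of the brightest, ALDH1L2 fell by 1.49 at 72 h and was still called, since 2 of the 3 sets sit near the lower limit of the scale.

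MTHFD1, the cytosolic enzyme with 3 activities on folate-bound carbon, is the only cytosolic member that the single-symbol rule could read. Probe set 202309_at read 12.39, 12.38 and 12.49 in controls and 12.11, 12.13 and 12.31 with Ota at 24 h. At 72 h it read 11.78, 11.93 and 11.76 in controls and 12.24, 12.29 and 12.22 with Ota. The Ota arrays are below the controls at 24 h and above them at 72 h, with no overlap at either time. The difference at 24 h was -0.23 ± 0.09 and did not pass (limma, adjusted p = 0.0603). MTHFD1 rose at 72 h by 0.42 ± 0.09, or 1.34-fold (limma, adjusted p = 0.00341). The second MTHFD1 set, 239846_at, stood at 2.55 to 2.64 on all arrays, below the filter; with the mean of both sets the 72 h rise was 0.21 and was still called.

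**Figure D2:**
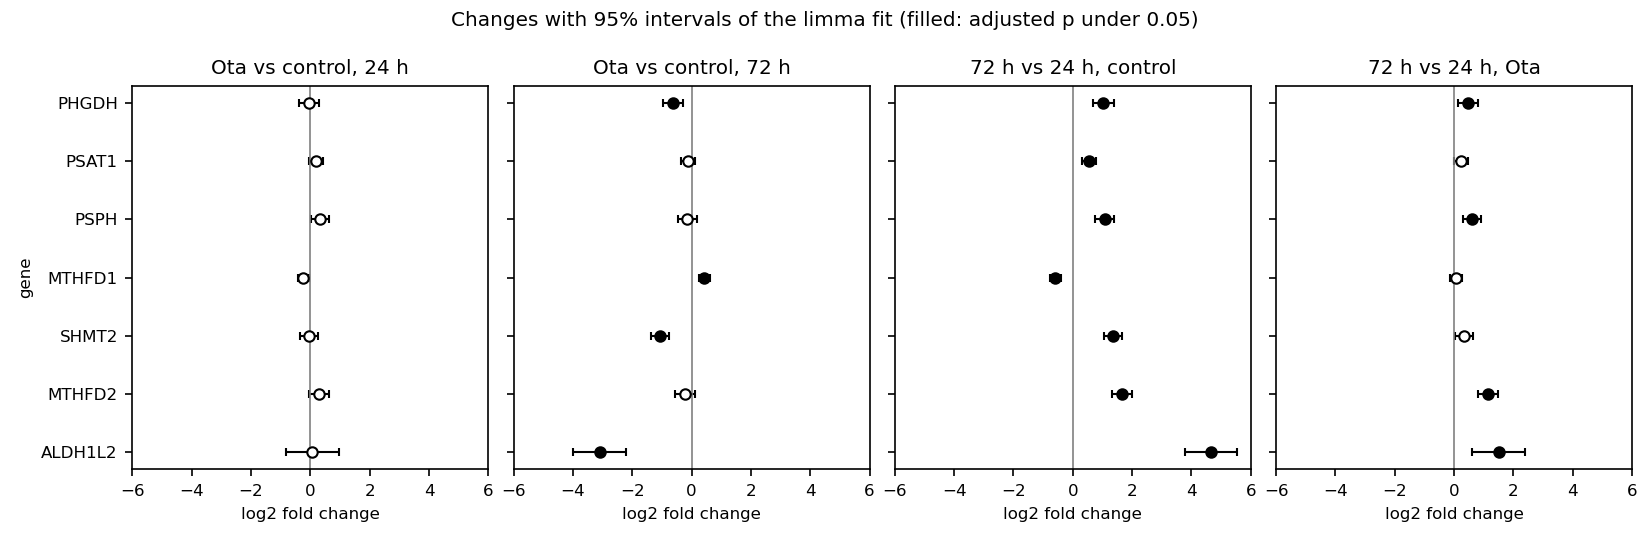
Log2 fold changes of the 7 tested genes with 95% intervals of the limma fit, in 4 comparisons; filled points have an adjusted p under 0.05. At 72 h the points of PHGDH, SHMT2 and ALDH1L2 lie left of 0 and that of MTHFD1 lies right of it, and in the controls over time the same genes lie on the opposite sides.

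SHMT1, the cytosolic serine hydroxymethyltransferase, could not be read by the rule, because its single-symbol sets stayed at or below 3.43 on every array. Its bright sets are annotated to SHMT1 together with MIR6778, a microRNA gene inside the SHMT1 locus. They were added after the data were seen and are given by probe set. Set 209980_s_at read 10.54, 10.57 and 10.43 in controls and 11.16, 11.19 and 11.14 with Ota at 72 h. It was higher by 0.65 ± 0.10 (limma over probe sets, adjusted p = 0.000847), when 16.4% of all probe sets tested were called higher and 11.8% lower. Set 224954_at read 11.21, 11.56 and 11.20 against 11.93, 11.74 and 12.01, and was higher by 0.57 ± 0.14 (limma over probe sets, adjusted p = 0.0107). The groups did not overlap for either set at 72 h. That held for 51.4% of all genes tested, and the share over probe sets was not computed. At 24 h the 2 sets differed by 0.11 each and did not pass (limma over probe sets, adjusted p = 0.451 and 0.596).

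MTHFD1L, the mitochondrial synthetase that releases formate, is in the same position, with single-symbol sets no higher than 2.69. Sets 225520_at and 231094_s_at are annotated to MTHFD1L with LOC101928195 and LOC100996643, a pair of transcribed pseudogenes. The first read 10.16, 9.89 and 10.00 in controls and 9.54, 9.82 and 9.55 with Ota at 72 h, lower by -0.38 ± 0.12 in log2 (limma over probe sets, adjusted p = 0.0319). The second read 7.96, 7.80 and 7.84 against 6.64, 7.05 and 6.87 at 72 h, a difference of -1.02 ± 0.20 (limma over probe sets, adjusted p = 0.00319). It was already lower at 24 h, 7.20, 6.44 and 6.94 with Ota against 7.82, 7.32 and 7.83, by -0.79 ± 0.20 (limma over probe sets, adjusted p = 0.0104), while the first set differed by 0.04 ± 0.12 (limma over probe sets, adjusted p = 0.841). How much of each signal comes from MTHFD1L and how much from the pseudogenes was not tested.

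**Figure D3:**
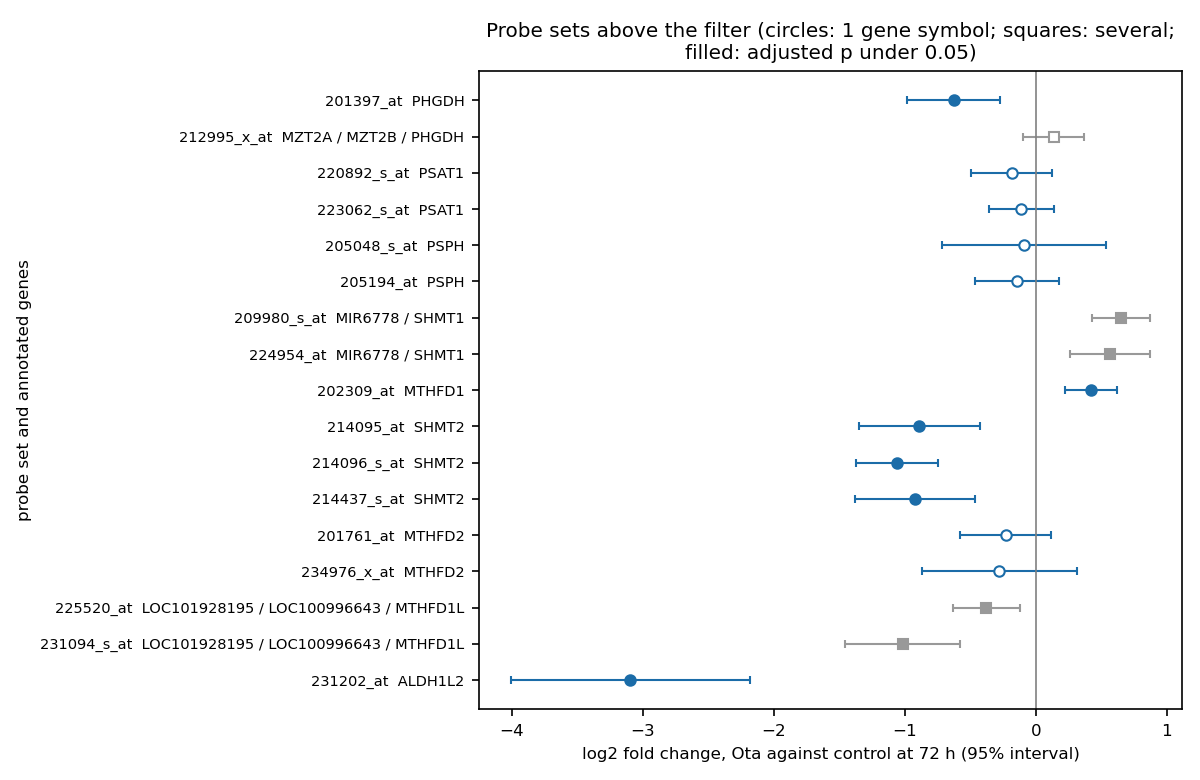
Log2 fold change at 72 h, Ota against control, with 95% intervals, for the 17 probe sets of the members above the filter; circles have 1 gene symbol and squares several, and filled symbols have an adjusted p under 0.05 over all probe sets. The 3 SHMT2 sets lie together near -1, and the sets annotated to SHMT1 and MTHFD1 lie right of 0.

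By compartment, every mitochondrial folate set of the members above the filter lay below 0 at 72 h and every cytosolic folate set of the members above 0. This counts the SHMT1 and MTHFD1L sets that are shared with other genes, and the serine synthesis sets belong to neither group here. The pattern does not extend to all mitochondrial folate genes outside the members. At 72 h MTFMT averaged 6.48 with Ota against 6.03 in controls, and SLC25A32 9.69 against 9.49. MTHFD2L averaged 6.94 against 7.90. Of the 12 single-symbol sets above the filter, 5 fell at 72 h (PHGDH, ALDH1L2 and the 3 of SHMT2, which share a gene) and 1 rose (MTHFD1), when 11.8% of all probe sets tested were called lower and 16.4% higher. The mitochondrial single-symbol sets numbered 6, of which 4 fell and both sets of MTHFD2 did not pass. To compare paralogs directly, the log2 difference between a mitochondrial and a cytosolic enzyme was taken on each array and compared between groups with an exact two-sided permutation test, which with 3 against 3 arrays cannot go below p = 0.1. A level difference between probe sets has no meaning of its own, so only its change with Ota is read.

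The difference MTHFD2 minus MTHFD1, added after the data were seen because the planned pairs include genes at the lower limit, went from -1.31 ± 0.26 in controls to -0.79 ± 0.02 with Ota at 24 h (SD, n = 3), a shift of 0.52 toward MTHFD2. At 72 h it went from 0.95 ± 0.19 to 0.29 ± 0.19, a shift of -0.65, away from MTHFD2. Groups did not overlap at either time, and each exact permutation p was 0.1, the smallest possible. The shifts at the 2 times have opposite signs. SHMT2 minus set 224954_at, also added later, shifted by -1.63 at 72 h (exact permutation p = 0.1) and by -0.15 at 24 h (exact permutation p = 0.5).

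The planned pairs used the single-symbol sets alone. SHMT2 minus SHMT1 shifted by -0.04 at 24 h (exact permutation p = 0.8) and by -1.16 at 72 h (exact permutation p = 0.1), and since SHMT1 lies at the lower limit this restates SHMT2. The mean of MTHFD2 and MTHFD1L minus MTHFD1 shifted by 0.39 at 24 h and by -0.55 at 72 h (exact permutation p = 0.1 each), with MTHFD1L at the lower limit. Adjusted over these 4 tests, the smallest p was 0.133.

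The Ota responses of SHMT2, ALDH1L2 and MTHFD1 differed between 24 h and 72 h, tested as an interaction in the limma model. The response at 72 h minus that at 24 h was -3.15 ± 0.57 for ALDH1L2 (limma, adjusted p = 0.00379), -1.02 ± 0.20 for SHMT2 (limma, adjusted p = 0.00496) and 0.66 ± 0.12 for MTHFD1 (limma, adjusted p = 0.00412). For PHGDH it was -0.57 ± 0.22 and did not pass (limma, adjusted p = 0.0883), so its fall at 72 h is not shown to differ from its response at 24 h. MTHFD2 at -0.51 ± 0.22, PSPH at -0.47 ± 0.20 and PSAT1 at -0.30 ± 0.15 did not pass either (limma, adjusted p = 0.115, 0.122 and 0.191). Single probe sets differ from these gene results. The other two SHMT2 sets, 214095_at at -0.83 and 214437_s_at at -0.92, did not pass (limma over probe sets, adjusted p = 0.0769 and 0.0556). MTHFD2 set 234976_x_at passed (limma over probe sets, adjusted p = 0.0398), with its 24 h controls at the fixed lower value. Of all genes tested 15.5% were called higher and 5.79% lower in this interaction. When quantile normalization was repeated over the arrays, the split over all genes went from 1659 higher and 619 lower to 1398 and 843.

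The members also moved with time in the vehicle controls, and all 7 passed. From 24 h to 72 h ALDH1L2 rose by 4.66 ± 0.41 (25.2-fold), MTHFD2 by 1.66 ± 0.15 (3.17-fold), SHMT2 by 1.34 ± 0.14 (2.54-fold), PSPH by 1.07 ± 0.14 (2.10-fold), PHGDH by 1.03 ± 0.16 (2.05-fold) and PSAT1 by 0.55 ± 0.11 (1.46-fold). MTHFD1 fell by 0.59 ± 0.09. The adjusted p-values of limma ran from 5.55e-06 to 0.00173. Control arrays of the 2 times did not overlap for any of the 7, against 54.8% of all genes tested. Over all genes 22.7% were called higher and 23.6% lower, and the member median was 1.07 against 0.00 for all genes. With the mean of its probe sets the ALDH1L2 rise was 2.01, for the reason given above.

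In Ota cells 4 of the 7 members rose from 24 h to 72 h and none fell. ALDH1L2 rose by 1.50 ± 0.41, MTHFD2 by 1.15 ± 0.15, PSPH by 0.60 ± 0.14 and PHGDH by 0.46 ± 0.16 (limma, adjusted p = 0.0157, 0.000368, 0.00869 and 0.0424), when 22.2% of all genes were called higher and 9.99% lower. The arrays of the 2 times did not overlap for 6 of the 7, against 50.8% of all genes. SHMT2 at 0.32 ± 0.14, PSAT1 at 0.25 ± 0.11 and MTHFD1 at 0.06 ± 0.09 did not pass (limma, adjusted p = 0.0962, 0.107 and 0.604). The difference between the 2 changes over time is the same quantity as the interaction above, so it called ALDH1L2, SHMT2 and MTHFD1 alone among the members. The PHGDH call was lost in 6 of 14 alternatives, with adjusted p up to 0.157. Under repeated quantile normalization the split of all genes called went from 2378 higher and 1069 lower to 1944 and 1394. The 2 comparisons over time share their arrays with the Ota comparisons and are not separate evidence.

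**Figure D4:**
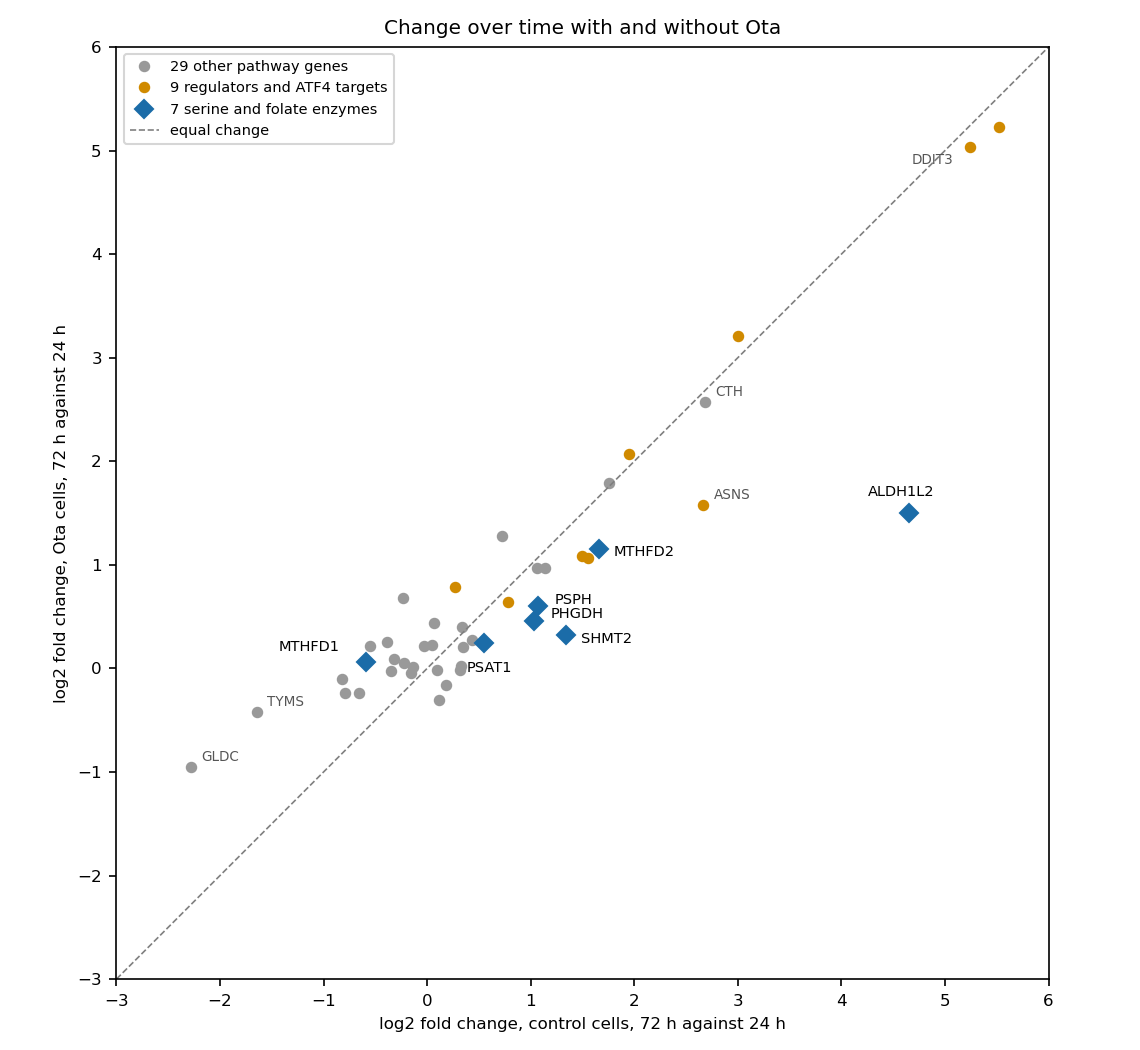
Log2 fold change from 24 h to 72 h in control cells (x axis) against Ota cells (y axis) for the 7 members (diamonds), 29 other pathway genes (grey) and 9 regulators and ATF4 targets (orange); the dashed line marks equal change. ALDH1L2 and SHMT2 lie below the line and MTHFD1 above it, while DDIT3 lies close to it.

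The rest of the one-carbon network was taken from a list of 41 genes, of which 36 have a single-symbol probe set and 29 passed the filter. At 24 h 2 rose and 8 fell, with a median of -0.18, when 9.44% of all genes tested were called higher and 21.6% lower. With every array in, 1010 of all genes were called higher and 2307 lower, and with 1 array of 24 h left out 2500 to 3226 in either direction. Without control replicate 3 at 24 h, 5 of the 29 rose and 7 fell, and with a replicate block on the 6 arrays of that time 3 rose and 12 fell. That block fit called 1011 of all genes higher and 2394 lower. The smallest p-values were in folate retention and sulfur metabolism. FPGS, which adds glutamates to folate and keeps it in the cell, read 7.07, 6.95 and 7.08 in controls and 5.83, 5.61 and 6.08 with Ota, and fell by 1.19 ± 0.12 (limma, adjusted p = 3.81e-05). CBS, which condenses serine with homocysteine, read 8.40, 8.06 and 8.29 against 6.92, 6.35 and 6.94 and fell by 1.51 ± 0.16 (limma, adjusted p = 4.21e-05). The arrays do not overlap for either gene, a pattern that 42.7% of all genes tested showed at 24 h.

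The other named genes of the 24 h comparison, taken by smallest p, have smaller changes. The reduced folate carrier SLC19A1 fell by 0.88 ± 0.14, and SFXN3, of the family of mitochondrial serine carriers, by 0.57 ± 0.09 (limma, adjusted p = 0.000674 and 0.000771). A second SLC19A1 set, at -0.30, did not pass. Methionine synthase, MTR, fell by 0.57 ± 0.12, yet another of its sets rose by 0.51, and with the mean of its sets the call was lost (limma, adjusted p = 0.00527 and 0.886). The folate receptor FOLR1 rose by 0.39 ± 0.09 (limma, adjusted p = 0.0055), its other set stood at -0.10, and this call too was lost with the mean (limma, adjusted p = 0.245).

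At 72 h 7 of the 29 rose and 5 fell, with a median of -0.05, when 17.1% of all genes tested were called higher and 14.9% lower. Without control replicate 3 at 72 h, 3 rose and 2 fell. Leaving out any other array of that time gave 5 to 7 that rose and 2 to 3 that fell, and repeated quantile normalization gave 6 and 7. Over all genes, 1827 were called higher and 1594 lower with every array in. With 1 array of 72 h left out, 2455 to 2959 were called in either direction. Thymidylate synthase, TYMS, which consumes the methylene folate that SHMT enzymes make, read 11.53, 11.66 and 11.19 in controls and 12.49, 12.41 and 12.48 with Ota, and rose by 1.00 ± 0.11 (limma, adjusted p = 9.51e-05). The Ota arrays are all above the controls, and 51.4% of all genes tested were without overlap in either direction. At 24 h TYMS had read 13.01 to 13.19 in controls and 12.84 to 12.92 with Ota. CBS was again lower, by -0.96 ± 0.16 in log2 (limma, adjusted p = 0.000999). GGH, the hydrolase that removes the glutamates, was higher with Ota by 0.90 ± 0.16 (limma, adjusted p = 0.0013). From 24 h to 72 h the GGH mean went from 11.24 to 10.45 in controls and from 11.59 to 11.35 with Ota.

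GART, a purine enzyme that uses formyl folate, rose by 0.39 ± 0.09 at 72 h (limma, adjusted p = 0.0077), and 3 of its 5 other sets also rose, by 0.59, 0.68 and 1.07. The remaining GART sets stood at -0.49 and -1.29 without passing, and the mean of all its sets was not called (limma, adjusted p = 0.367). SRR, the serine racemase, rose by 0.52 ± 0.14, and the glycine cleavage enzyme GLDC by 0.94 ± 0.25 (limma, adjusted p = 0.0131 and 0.0132). Without control replicate 3 at 72 h both missed the threshold, at 0.45 and 0.71 (limma, adjusted p = 0.0545 and 0.0549), and GLDC also did without Ota replicate 3, at 0.84 (limma, adjusted p = 0.0508). MTHFD2L, a further mitochondrial dehydrogenase outside the 9, is named after its values were seen. It was lower by -1.08 ± 0.26 at 24 h and by -0.97 ± 0.26 at 72 h (limma, adjusted p = 0.00794 and 0.0145).

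Among 9 regulators and ATF4 targets, 0 rose and 1 fell with Ota at 24 h, and 0 rose and 4 fell at 72 h, with medians of -0.24 and -0.36. The shares over all genes tested were 21.6% lower at 24 h and 14.9% lower at 72 h. The 1 that fell at 24 h was TRIB3, named after its values were seen. TRIB3 read 11.16, 11.18 and 11.17 in controls and 10.30, 10.49 and 10.40 with Ota at 24 h. ATF4 itself read 13.64, 13.79 and 13.68 in controls and 12.81, 13.29 and 13.07 with Ota at 72 h. It fell there by 0.65 ± 0.12 (limma, adjusted p = 0.00153), after -0.24 ± 0.12 at 24 h (limma, adjusted p = 0.136). The difference between the 2 responses did not pass (limma, adjusted p = 0.1). Its mRNA says nothing of its translation, which was not measured.

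ASNS, asparagine synthetase and a known ATF4 target, read 11.84, 11.67 and 11.82 in controls and 10.19, 11.07 and 10.67 with Ota at 72 h, with replicate 2 again highest of the Ota arrays. It fell by 1.13 ± 0.20 (limma, adjusted p = 0.0015) after -0.04 ± 0.20 at 24 h (limma, adjusted p = 0.897), and the interaction was -1.09 ± 0.28 (limma, adjusted p = 0.0199). The interaction was -0.57 with the mean of the ASNS sets, still called, and was lost with no filter (limma, adjusted p = 0.0606). DDIT3, which encodes CHOP, fell by 0.63 ± 0.21 at 72 h (limma, adjusted p = 0.0407), a call lost in 6 of 15 alternatives with adjusted p up to 0.136. MYC, at -0.32 ± 0.16 and 0.19 ± 0.16, passed at neither time (limma, adjusted p = 0.161 and 0.404). With the replicate block MYC passed at 24 h over all arrays (limma, adjusted p = 0.0443), and DDIT3, at -0.42, on the 6 arrays of that time (limma, adjusted p = 0.0237). In controls over time 8 of the 9 rose and none fell, with a median of 1.95, against 22.7% of all genes called higher. In Ota cells all 9 rose, with a median of 1.58, against 22.2%. ATF4 rose by 1.50 and 1.09, and DDIT3 by 5.24 and 5.03, in control and Ota cells.

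For the members whose group means span at least 1 on the log2 scale, the genes with the most similar profile were found by the root mean square distance between profiles over the 12 arrays, each centred on its own mean, among 10699 genes. The nearest to SHMT2 were ERP44 at 0.11 and RHOQ at 0.12, and to PHGDH CDK2AP2 at 0.13 and NFE2L1 at 0.14. PSPH had TERF2IP and ZBTB26, both at 0.13, and MTHFD2 had FAM13B at 0.15 and THAP9-AS1 at 0.17. ALDH1L2 had no profile nearer than LAMP3 at 0.54, followed by SCG5 at 0.58, both in log2 units. PSAT1 and MTHFD1 span 0.55 and 0.59 and were left out. Among the members, PHGDH ranked 40 in nearness to SHMT2, and SHMT2 ranked 72 in nearness to PHGDH, at a distance of 0.21.

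The ratio of 3' to 5' actin probe sets, a measure of RNA integrity, was 1.01 ± 0.21, 1.17 ± 0.12, 1.18 ± 0.17 and 1.28 ± 0.08 in log2 (SD, n = 3) in control 24 h, Ota 24 h, control 72 h and Ota 72 h. The groups' ranges of mean ± SD overlap at each time, and the part of RNA integrity in the members' values was not tested.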

How the data were processed

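Total RNA from 12 HK-2 cultures was hybridised to Affymetrix arrays, and the authors deposited log2 values made with GCRMA, per the submitters' processing notes; its version and settings are not given in the sources used here. Of 54675 probe sets, 62 controls were left out, 41091 carry 1 gene symbol (41037 updated through gene identifiers, 54 kept), 1801 several and 11721 none. Each gene was represented by its single-symbol probe set with the highest mean over all arrays, and kept if above log2 4 on at least 3 arrays. Group means were fitted over all 12 arrays with limma 3.58.1 in R 4.3.3 (lmFit and eBayes, 8 residual and 3.31 prior degrees of freedom, Benjamini-Hochberg adjusted p under 0.05), and again over 22477 probe sets (2.93 prior degrees of freedom). The script was tested on simulated data. Precision is limited by having 3 arrays per group.

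The members, gene lists and tests were chosen with earlier results of these data known. Named genes were all 9 members, up to 6 called genes of the pathway list per Ota comparison by smallest p, ATF4, DDIT3, MYC and ASNS whatever their values, and 2 nearest profiles per member. Whether same-numbered replicates pair was checked by the correlation of their deviations from the group means. These were 0.44, 0.32 and 0.45 between control and Ota at 24 h. They were 0.07 to 0.27 elsewhere, where at least 1 pair lay under 0.1. Arrays of different numbers were not compared, so whether the numbers pair the samples at 24 h was not established. Alternatives covered the choice of probe set, the filter, the scaling, the variance model, the replicate block, the arrays fitted and each array left out. The block on the 6 arrays of 24 h alone was added after the data were seen. The labels and files name no batch.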

Additional observations from a re-analysis of the deposited data

Results flagged for a closer look

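For 3 members a test of the interaction found that the Ota response differed between 24 h and 72 h. For ALDH1L2 the response at 72 h minus that at 24 h was -3.15 on the log2 scale (limma, adjusted p = 0.00379), from 0.06 at 24 h to -3.09 at 72 h, and the 24 h level lay near the filter. SHMT2 stood at -1.02 (limma, adjusted p = 0.00496), from -0.04 to -1.06. MTHFD1 stood at 0.66 (limma, adjusted p = 0.00412), from -0.23 to 0.42, so that its arrays separated in opposite directions at the 2 times. These 3 are called out of 7 tested members, when 15.5% of all genes tested were called higher and 5.79% lower.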

How the results depend on the processing

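The 4 calls at 72 h were made in all 15 alternatives, with ranges of -3.59 to -1.49 for ALDH1L2, -1.19 to -0.89 for SHMT2, -0.75 to -0.52 for PHGDH (adjusted p up to 0.0487) and 0.21 to 0.48 for MTHFD1. The low ends of ALDH1L2 and MTHFD1 came from averaging every set of the gene, which brings in sets near the lower limit. All 7 calls over time in controls were made in 14 of 14 alternatives, and the interaction gave 2 to 4 over 20; the SHMT2 interaction was lost with sets ending in _at preferred (adjusted p = 0.0631). At 24 h the count of members called, 0, became 1 with the mean of probe sets (MTHFD2, adjusted p = 0.0178), with no filter, with arrays shifted to a common median and with a trended, robust variance (MTHFD1, adjusted p = 0.0373, 0.0404 and 0.0268), and 0 to 1 with each array left out; the cause was not tested. Without control 24 h replicate 1 the gene called was PSPH, without replicate 3 MTHFD2, and without Ota 24 h replicate 3 MTHFD1. Over time in Ota cells the count of 4 became 2, and the 5 probe sets called became 3, with no filter, where more features are tested; leaving out arrays gave 3 to 5. ALDH1L2 over time in Ota cells was not called with no filter or with the mean of probe sets (adjusted p = 0.059 and 0.0559). With no filter, 1 single-symbol set passed at 24 h, and it was lower where the MTHFD2 set had been higher.

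The values whose sign turned had not passed the test in the first place. With each array left out in turn at 24 h PHGDH ran from -0.20 to 0.068, SHMT2 from -0.082 to 0.017, ALDH1L2 from -0.29 to 0.29 and ASNS from -0.19 to 0.090, and the interaction of DDIT3 from -0.41 to 0.096. SHMT2 minus SHMT1 at 24 h became 0.0052 under repeated quantile normalization and ran from -0.10 to 0.038 with each array left out; the cause was not tested. With the replicate block, which pairs same-numbered samples, the counts of members called were 0, 4, 3, 7 and 4 in the 5 comparisons, and no member's call changed. With the block on the 6 arrays of 24 h alone, added after the data were seen, the count at 24 h was 1 (PSPH, adjusted p = 0.0297). Over all genes that fit called 1011 higher and 2394 lower. The number of arrays limits what can be called: the intervals of PSAT1, PSPH and MTHFD2 at 72 h still include falls of 0.35 to 0.57.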
